A study of Mus musculus with 6 samples.

Results

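A set of 36 mouse aminoacyl-tRNA synthetase genes, 20 for cytosolic enzymes and 16 for mitochondrial ones, were followed in RNA-seq libraries of megakaryocytic-erythroid progenitors (MEPs), the progenitors of platelets and red cells. The members were taken by gene name from the 52459 genes of the deposited count table, and the mitochondrial ones were those whose name ends in 2. All 36 were present under the name given, and all 36 were among the 13453 genes that passed the filter on low counts. The study compared Tmprss6-/- mice (KO), which lack the protease that holds down hepcidin and serve as a model of iron deficiency, with wild-type mice (WT). Each genotype had 3 libraries, numbered as replicates 1, 2 and 3, and each library came from the pooled cells of 3 mice, so p-values measure the spread between pools. The sorted cells were Lin-, cKit+ and Sca-, and among these FcgRI/II-, CD105- and CD41- with CD150+. No other allele or agent is named for either genotype, and neither strain nor age is given in the sources used here.

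An aminoacyl-tRNA synthetase joins an amino acid to its tRNA, and the charged tRNA is carried to the ribosome by an elongation factor. Cytosol and mitochondria use largely separate sets of enzymes, all encoded in the nucleus. Gars and Kars are exceptions, since each makes both the cytosolic and the mitochondrial form, and mitochondrial glutaminyl-tRNA is made by the amidotransferase of Qrsl1, Gatb and Gatc in place of a synthetase of its own. Many cytosolic synthetase genes are targets of ATF4, the transcription factor of the amino acid and integrated stress responses, and in red cell precursors this response is also triggered through the heme-regulated kinase HRI when heme is low.

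Library totals lay between 13402209 and 18105463 counts in KO libraries and between 13666585 and 22986837 counts in WT libraries. Tmprss6 had 0, 5 and 0 counts in KO libraries and 5, 4 and 0 counts in WT libraries, so the targeted gene, which is mainly a liver gene, checks no label here. All 12 MEP markers were detected in every library, at a summed 9091, 6489 and 9376 CPM (counts scaled to 1000000 per library) in KO libraries and 7976, 8986 and 9461 CPM in WT libraries. KO replicate 2 stood apart. Its summed level was 8755 CPM for 12 eosinophil, basophil and mast cell markers, while the other 5 libraries held 43.3 to 825 CPM, and all 12 were highest in it. It likewise held 3383 CPM of 10 neutrophil markers against 82.9 to 378 CPM, 3082 CPM of 12 macrophage markers against 76.3 to 361 CPM, 5380 CPM of 11 late erythroid markers against 180 to 431 CPM, and 808 CPM of 12 lymphoid markers against 255 to 473 CPM. Megakaryocyte markers summed to 286 CPM in it, against 77.4 to 134 CPM. The part of these RNAs in the results was not tested, so results are given with and without that library. In sorted bulk cells, fewer cells of a type and less RNA per cell cannot be told apart.

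Levels of different genes were compared as CPM per kilobase of the longest annotated transcript. On that scale Lars2, the mitochondrial leucyl-tRNA synthetase, led the family with 469 ± 156 in KO libraries and 427 ± 111 in WT libraries (SD, n = 3 each). It stood at the 99.0th percentile of the 13443 tested genes with a known length, with 139 genes above it. Dars, the cytosolic aspartyl-tRNA synthetase, came next with 269 ± 122.9 in KO libraries and 292 ± 119.6 in WT libraries, at the 98.2nd percentile. The ranges of Lars2 and Dars overlapped in WT libraries. Vars, which charges valine, followed with 134 ± 46.6 in KO libraries and 126 ± 59.9 in WT libraries, and Nars, which charges asparagine, with 141 ± 33.1 in KO libraries and 109.6 ± 39.1 in WT libraries. At the other end stood 3 mitochondrial genes. Wars2, for tryptophan, had 3.40 ± 0.93 in KO libraries and 3.999 ± 0.47 in WT libraries, at the 37.2nd percentile. Mars2, for methionine, had 4.95 ± 1.31 in KO libraries and 4.95 ± 1.56 in WT libraries, although its longest transcript of 11294 nt weighs on that value. Ears2, for glutamate, had 5.14 ± 1.09 in KO libraries and 5.43 ± 1.13 in WT libraries.

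**Figure D1:**
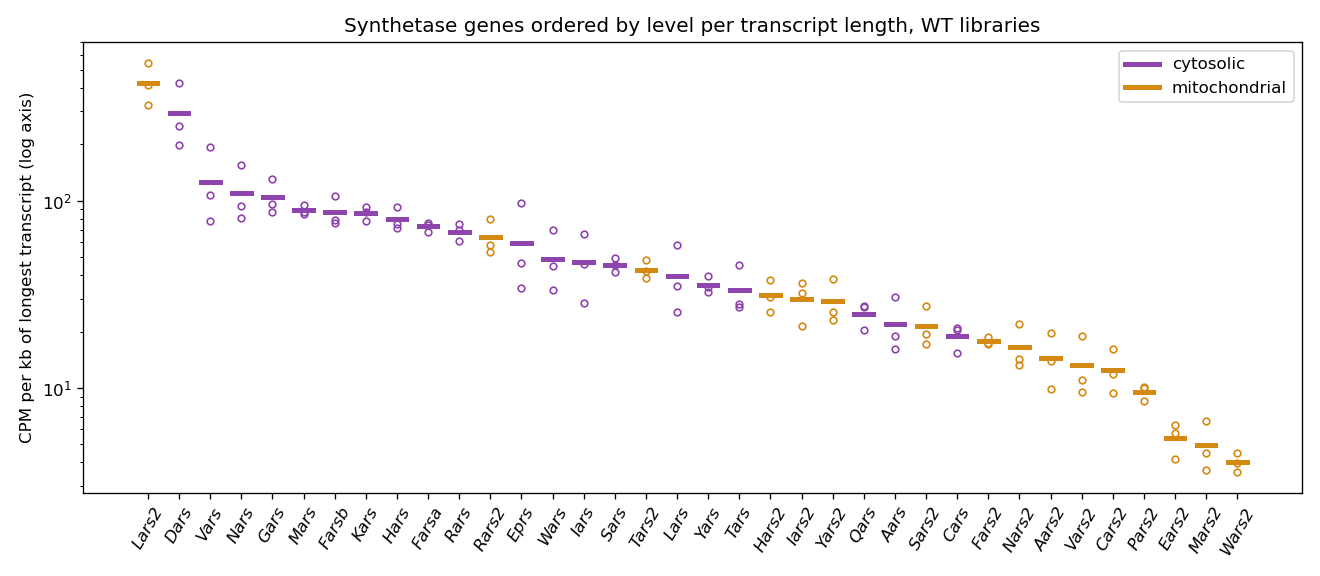
Level of each of the 36 members in the WT libraries, in CPM per kilobase of the longest transcript on a log axis, with open points for the 3 libraries, bars for their mean and colour for the compartment. Lars2 and Dars stand above the rest, and Wars2, Mars2 and Ears2 stand lowest.

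Cytosolic members were the higher set. The median over the 20 cytosolic members was 70.3 CPM per kilobase in KO libraries and 63.8 in WT libraries, and the median over the 16 mitochondrial members was 16.4 in KO libraries and 17.1 in WT libraries, so that the medians differed 3.72-fold in WT libraries. Lars2 exceeded the next mitochondrial gene, Rars2, which charges arginine, by 6.71-fold in WT libraries. Of the 35 neighbouring pairs in the order, 33 overlapped in WT libraries, so the fine order is not resolved. The exceptions were Dars over Vars and Pars2 over Ears2. Cytosolic genes were set beside the mitochondrial gene for the same amino acid in 17 pairs, with Eprs in 2 of them, and the cytosolic gene was the higher one per kilobase in WT libraries in 15 pairs. Lars and Lars2 formed 1 exception, with Lars at 0.0927 of Lars2, and Tars and Tars2, for threonine, the other, with Tars at 0.781 of Tars2. The lowest cytosolic members were Cars, for cysteine, with 26.9 ± 2.26 in KO libraries and 18.9 ± 3.13 in WT libraries, Aars, for alanine, with 31.0 ± 11.1 in KO libraries and 21.9 ± 7.55 in WT libraries, and Qars, for glutamine, with 25.5 ± 3.69 in KO libraries and 24.9 ± 4.03 in WT libraries. In WT libraries Aars overlapped both other genes in range, and the highest Cars value, 20.9, lay just above the lowest Qars value, 20.3. The Aars transcript of 5750 nt, the longest among cytosolic members, weighs on its value. Without division by length its WT mean was 126 CPM, against 76.5 CPM for Qars and 60.8 CPM for Cars.

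The level of Lars2, on chromosome 9, has a limit in sequence that it shares with another gene. Positions 3278 to 3349 of its 3894-nt transcript match a stretch of Gm15564 over 72 nt at 98.6% identity. Gm15564 is annotated as an antisense RNA, but no gene of the count table overlaps Lars2. The match is thus one of sequence and not of a shared place. Gm15564 had 203, 98.0 and 89.4 CPM in KO libraries, against 181, 107 and 83.5 CPM in WT libraries. It was highest in replicate 1 of both genotypes. Lars2 itself had 2432, 1831 and 1217 CPM in KO libraries, against 2121, 1607 and 1263 CPM in WT libraries, also highest in replicate 1 and lowest in replicate 3 of both genotypes. The share of Lars2 counts that comes from this stretch was not tested.

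No member passed the test between genotypes. In edgeR's quasi-likelihood test with Benjamini-Hochberg adjustment over all 13453 genes, the adjusted p was 1.00 for each of the 36 members, and 0 of the 13453 genes were called (0%). In simulated data of this design the same test called none of the genes made to differ, so the lack of calls does not show that levels were alike. DESeq2 called 6 of the 13453 genes (0.0446%) and no member, and limma voom called 0 (0%). No member had an unadjusted p under 0.05, against 206 higher (1.53%) and 28 lower (0.208%) among all genes. The compartments differed in how many fold changes were positive, and that difference was not tested. The fitted log2 fold change, KO over WT, was positive for 19 of 20 cytosolic members, with a median of 0.22 and a range from -0.12 to 0.51. Single libraries moved this, to a median of 0.0481 with 12 of 20 positive without KO replicate 3, 0.12 with 14 of 20 without WT replicate 1, and 0.48 with 19 of 20 without WT replicate 3. It was positive for 11 of 16 mitochondrial members, with a median of 0.03 and a range from -0.23 to 0.27. It was positive for 6 of 16 mitochondrial members without KO replicate 1 (median -0.15), without WT replicate 2 (-0.0303) or without WT replicate 3 (-0.0435), and for 8 of 16 without KO replicate 3 (0.0020) or WT replicate 1 (0.11). Among all tested genes 49.3% were higher and 50.7% lower, and the median was -0.0048.

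**Figure D2:**
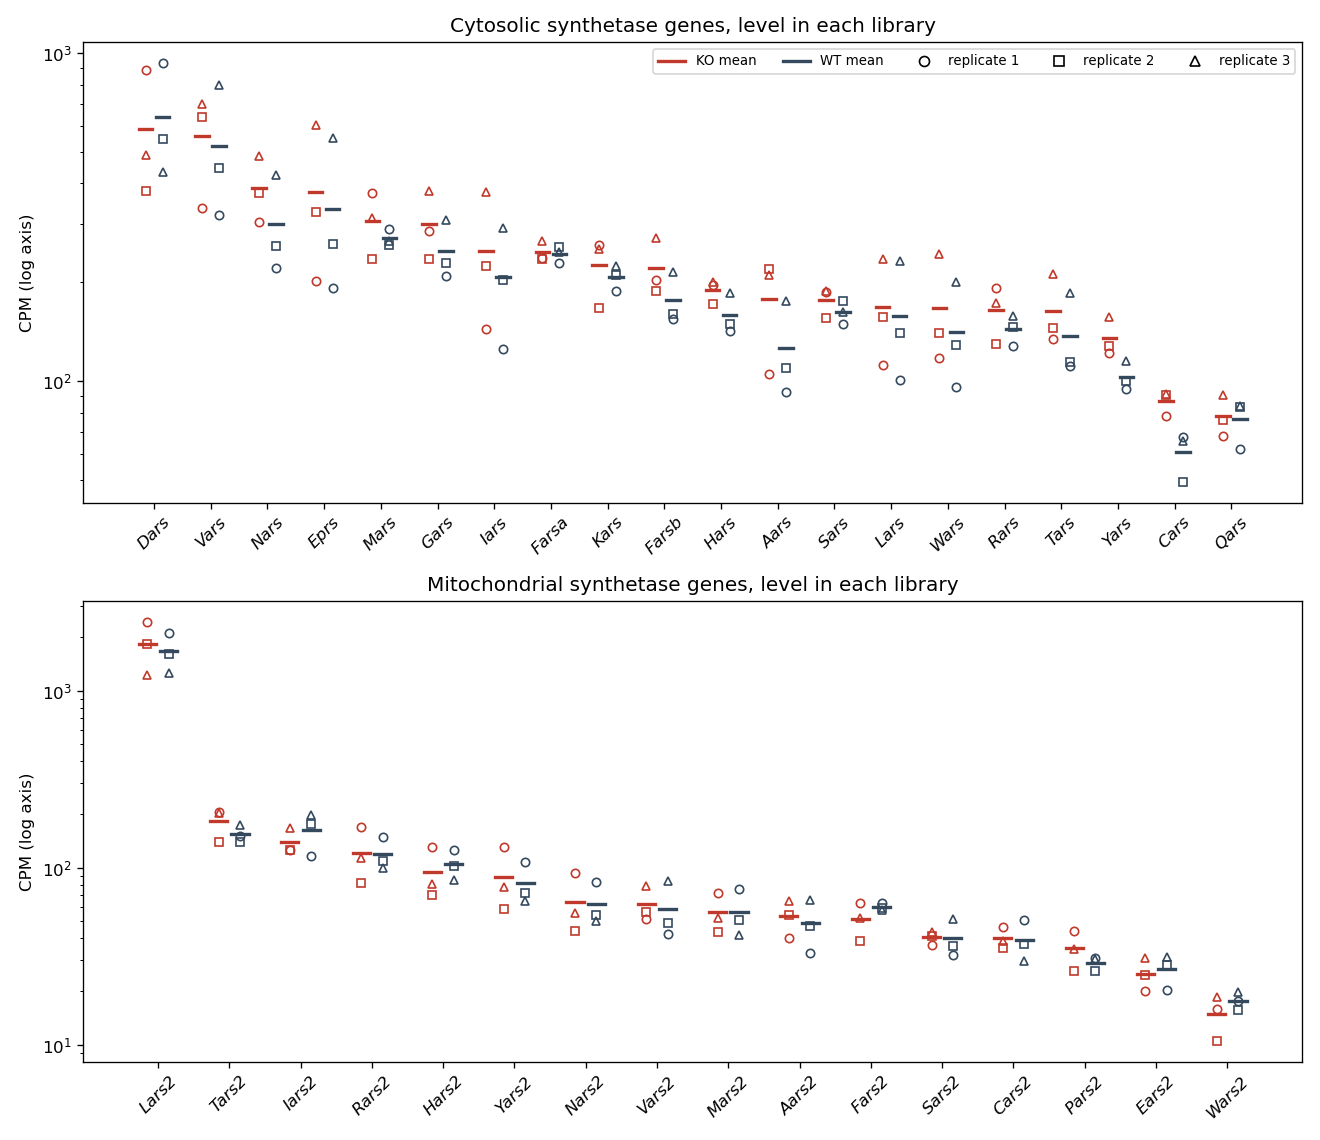
Level of each member in CPM on a log axis, with KO libraries left of WT libraries, 1 symbol per replicate number and bars for group means. The KO and WT points of most members overlap, and those of Cars and Yars do not.

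Cars encodes the cytosolic cysteinyl-tRNA synthetase (GRCm38, chromosome 7, 143557230 to 143600090, minus strand). It had 78.3, 90.7 and 91.0 CPM in KO libraries, against 67.5, 49.2 and 65.8 CPM in WT libraries, and each KO library lay above each WT library. Its means were 86.7 ± 7.28 CPM in KO libraries and 60.8 ± 10.1 CPM in WT libraries (SD, n = 3 each), and the log2 fold change was 0.51 ± 0.26 (SE). Yars, for tyrosine (chromosome 4, 129189760 to 129219607, plus strand), had 122, 128 and 157 CPM in KO libraries, against 94.2, 100.2 and 115 CPM in WT libraries. Its groups did not overlap either, and its log2 fold change was 0.40 ± 0.25 (SE). Cars and Yars were the 2 members whose KO libraries all exceeded every WT library, and 2.27% of all tested genes did so. No member had all KO libraries below every WT library, as 1.76% of tested genes did.

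Aars, for alanine (chromosome 8, 111033144 to 111057664, plus strand), had 105, 219 and 211 CPM in KO libraries, against 92.8, 109 and 175 CPM in WT libraries. KO replicates 2 and 3 stood above all WT libraries, and KO replicate 1 lay below 2 of the 3 WT libraries. Its log2 fold change was 0.51 ± 0.39 (SE) over the 6 libraries and 0.33 without KO replicate 2. Nars, for asparagine, had 304, 373 and 484 CPM in KO libraries, against 221, 258 and 423 CPM in WT libraries. The groups overlapped, WT replicate 3 being above KO replicates 1 and 2, and the log2 fold change was 0.37 ± 0.35 (SE). Both genes were higher in the KO library of every replicate number, with differences in log2 CPM for pairs 1, 2 and 3 of 0.17, 1.00 and 0.27 for Aars and of 0.46, 0.53 and 0.19 for Nars.

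Aars, Cars, Nars and Yars belong to 12 cytosolic synthetase genes known from mouse fibroblasts as ATF4 targets, the others being Eprs, Gars, Iars, Lars, Mars, Sars, Tars and Wars. All 12 had a positive log2 fold change, with a median of 0.26, and 10 of the 12 were higher in the KO library in each of the 3 pairs. The medians by pair were 0.28, 0.24 and 0.25. Over the 12 genes the median was 0.0667 with 8 positive without KO replicate 3, 0.14 with 9 positive without WT replicate 1, 0.45 without KO replicate 1 and 0.56 without WT replicate 3, with all 12 positive in the last 2 settings. The remaining 8 cytosolic members had a median of 0.11, with 7 of 8 positive, and 2 of the 8 were higher in all 3 pairs. Their medians by pair were 0.26, -0.13 and 0.12, the negative one being that of the pair with KO replicate 2. Among all tested genes 11.4% were higher in all 3 pairs. Without KO replicate 2 the medians were 0.33 for the 12 and 0.20 for the 8, and without KO replicate 3 the 8 had a median of 0.0139 with 4 positive. Without WT replicate 3 the 8 had a median of 0.23. The difference between the 12 and the 8 was not tested.

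Gars, for glycine, had 287, 236 and 378 CPM in KO libraries, against 208, 229 and 310.3 CPM in WT libraries. Tars, for threonine, had 134, 145 and 211 CPM in KO libraries, against 111, 115 and 185 CPM in WT libraries. Iars, for isoleucine, had 143, 223 and 377 CPM in KO libraries, against 126, 203 and 293 CPM in WT libraries, and its replicate 1 was lowest in both genotypes. The groups of these 3 genes overlapped, and their log2 fold changes were 0.27 ± 0.30, 0.26 ± 0.32 and 0.26 ± 0.45 (SE). Wars, for tryptophan, had 117, 140.0 and 244 CPM in KO libraries, against 95.8, 128 and 199.8 CPM in WT libraries. Lars, for leucine, had 112, 157 and 236 CPM in KO libraries, against 101, 140.2 and 232 CPM in WT libraries. Eprs, a fused enzyme for glutamate and proline, had 202, 327 and 604 CPM in KO libraries, against 192, 262 and 550.1 CPM in WT libraries. In these 3 genes too the spread within a genotype exceeded the gap between genotypes. Mars and Sars, for methionine and serine, were the 2 of the 12 with a lower value in KO replicate 2 than in WT replicate 2, and their log2 fold changes were 0.18 ± 0.28 and 0.12 ± 0.24 (SE).

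The promoters of the members were read for the composite element that ATF4 binds with C/EBP partners, written TGATGNAA, or TTNCATCA on the other strand. RefSeq promoters of GRCm38.p6, from 250 bases before to 50 bases after a transcription start, were matched for 27 of the 36 members. The element was in 5 of 13 cytosolic promoters (38.5%, exact 95% interval 13.9 to 68.4), namely those of Aars, Gars, Iars, Tars and Yars. All of these are in the group of 12, of which Cars, Lars, Nars and Wars had no matched promoter. Outside that group only the promoters of Dars, Farsa, Farsb, Kars and Qars were read among cytosolic members. It was in 0 of 14 mitochondrial promoters, for which the exact interval reaches 23.2%. Of all 27025 genes with a RefSeq promoter, 4.51% held it. The narrower form TGATGCAA, which is one case of the same element, was in 4 of 13 cytosolic promoters and in 1.03% of all genes. A match is a description of letters and not a measured binding site. Of the promoters that hold the element, the 3 whose genes had the smallest p between genotypes are printed 5′ to 3′ with the element in capitals, to show its place relative to the start site, which follows base 250 of the 300.
Yars: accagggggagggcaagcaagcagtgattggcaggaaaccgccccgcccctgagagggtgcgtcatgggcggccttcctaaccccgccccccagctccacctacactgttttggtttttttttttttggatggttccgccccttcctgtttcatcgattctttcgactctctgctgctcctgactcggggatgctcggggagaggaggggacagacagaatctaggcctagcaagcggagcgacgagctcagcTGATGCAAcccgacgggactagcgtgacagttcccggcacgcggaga
Aars: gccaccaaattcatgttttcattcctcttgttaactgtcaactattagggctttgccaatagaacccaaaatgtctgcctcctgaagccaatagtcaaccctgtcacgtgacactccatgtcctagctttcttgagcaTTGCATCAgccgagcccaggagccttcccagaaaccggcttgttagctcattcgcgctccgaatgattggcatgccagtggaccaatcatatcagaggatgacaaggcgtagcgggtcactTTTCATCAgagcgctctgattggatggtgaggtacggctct
Gars: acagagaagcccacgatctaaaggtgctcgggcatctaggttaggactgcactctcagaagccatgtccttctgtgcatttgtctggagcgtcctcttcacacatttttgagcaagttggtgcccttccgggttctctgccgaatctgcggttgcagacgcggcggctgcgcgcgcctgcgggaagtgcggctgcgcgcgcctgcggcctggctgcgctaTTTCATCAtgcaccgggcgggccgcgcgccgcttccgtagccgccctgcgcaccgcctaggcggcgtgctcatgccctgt
The Yars window is chr4:129189653-129189952 on the plus strand, and its element starts at base 254, just after the start site. The Aars window, chr8:111033592-111033891 on the plus strand, holds 2 elements read on the other strand, at bases 139 and 260. That of Gars, chr6:55037751-55038050 on the plus strand, holds 1 element on the other strand at base 221, just before the start site. The log2 fold changes of these 3 genes, given with their library values, were 0.40 for Yars, 0.51 for Aars and 0.27 for Gars.

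**Figure D3:**
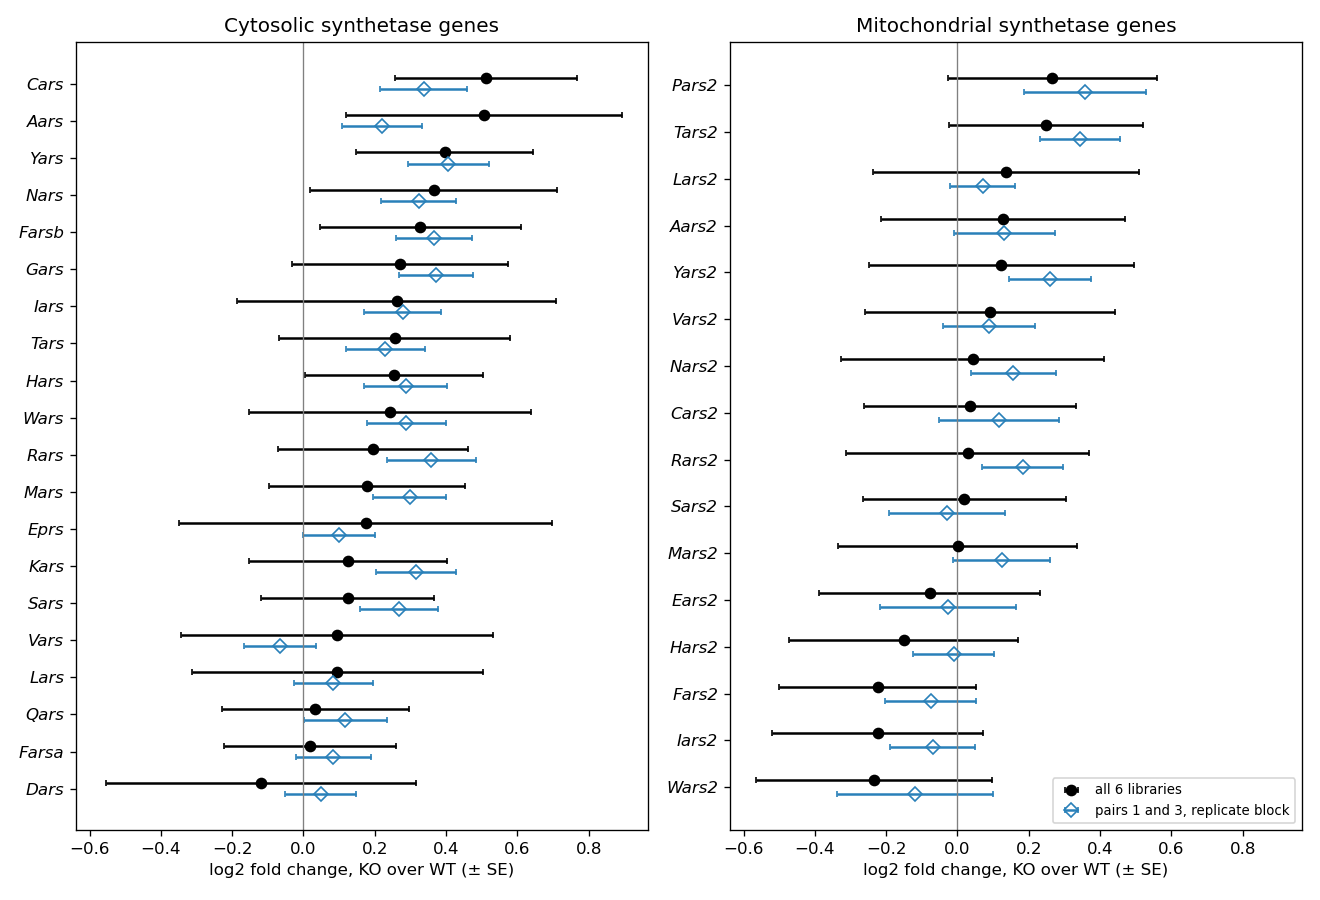
Fitted log2 fold change, KO over WT, of each member with its SE, from the fit of all 6 libraries (filled circles) and from replicate pairs 1 and 3 with a replicate block (open diamonds). Of the 20 cytosolic members 19 lie right of 0 in each fit, and the mitochondrial members lie on both sides of 0.

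Farsa and Farsb encode the 2 subunits of the cytosolic phenylalanyl-tRNA synthetase. Farsb had 202, 189 and 273 CPM in KO libraries, against 154, 160.3 and 215 CPM in WT libraries, with a log2 fold change of 0.33 ± 0.28 (SE). The KO library was the higher one in every pair, by 0.39, 0.23 and 0.34 on the log2 scale, although the groups overlapped. Farsa had 237, 235 and 267 CPM in KO libraries, against 228, 255 and 246 CPM in WT libraries, with a log2 fold change of 0.02 ± 0.24 (SE), and its KO replicate 2 lay below WT replicate 2. The difference between the subunits was not tested.

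Hars, for histidine, had 196, 172 and 199.9 CPM in KO libraries, against 142, 149.6 and 185 CPM in WT libraries. It was higher in the KO library in each pair, and WT replicate 3 lay above KO replicate 2. Hars and Hars2 are neighbours on chromosome 18 that point away from each other, and they overlap at 36783008 to 36783205. The kit does not mark strand, so reads from the shared stretch cannot be told apart. Cars, Farsb, Hars and Yars were the 4 members whose mean difference in log2 CPM exceeded the larger of the 2 group SDs, a size reached by 1249 of the 13453 tested genes.

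Dars, the aspartyl-tRNA synthetase, was the cytosolic member with a negative log2 fold change, -0.12 ± 0.44 (SE). It had 887, 380.5 and 487 CPM in KO libraries, against 929, 545 and 433 CPM in WT libraries. KO replicate 2 was the lowest of the 6 libraries and WT replicate 1 the highest, and without KO replicate 2 the log2 fold change was 0.11. Vars, for valine, had 336, 635 and 696 CPM in KO libraries, against 320.3, 446 and 798 CPM in WT libraries. Its direction turned the other way, since its log2 fold change was 0.09 ± 0.44 (SE) over the 6 libraries and -0.02 without KO replicate 2. Qars, for glutamine, had 68.1, 76.0 and 90.4 CPM in KO libraries, against 62.2, 83.4 and 83.8 CPM in WT libraries, with groups that overlapped and a log2 fold change of 0.03 ± 0.26 (SE).

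Of the cytosolic enzymes, Dars, Eprs, Iars, Kars, Lars, Mars, Qars and Rars sit together in the multisynthetase complex. These 8 genes had a median log2 fold change of 0.15, with 7 positive, and the 12 cytosolic genes outside the complex had a median of 0.26, with all 12 positive. Without KO replicate 2 the medians were 0.28 for the complex genes, with 8 of 8 positive, and 0.34 for the others, with 11 of 12 positive. Without KO replicate 3 they were -0.0474 for the complex genes, with 3 of 8 positive, and 0.11 for the others, with 9 of 12 positive. Without WT replicate 1 they were 0.0236 and 0.16, and without WT replicate 3 they were 0.23 and 0.52. The scaffolds of the complex had log2 fold changes just below 0 over the 6 libraries. Aimp1, which holds the complex and also acts as a secreted cytokine, had a log2 fold change of -0.09 ± 0.40, Aimp2 of -0.08 ± 0.45 and Eef1e1 of -0.06 ± 0.50 (SE). Without KO replicate 2 all 3 scaffolds were positive, between 0.16 and 0.20.

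Among the mitochondrial enzymes the 2 smallest unadjusted p-values belonged to Pars2 and Tars2. Pars2, for proline, had 44.0, 25.9 and 34.8 CPM in KO libraries, against 30.7, 26.1 and 30.4 CPM in WT libraries. Tars2, for threonine, had 207, 139 and 205 CPM in KO libraries, against 151, 139.6 and 173 CPM in WT libraries. KO replicate 2 was the lowest library for each gene, while KO replicates 1 and 3 exceeded all 3 WT libraries. The log2 fold changes were 0.27 ± 0.29 for Pars2 and 0.25 ± 0.27 for Tars2 (SE), and 0.44 and 0.41 without KO replicate 2.

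Fars2, for phenylalanine, had 63.1, 38.5 and 52.1 CPM in KO libraries, against 63.1, 58.8 and 57.6 CPM in WT libraries. Iars2, for isoleucine, had 126, 126 and 167 CPM in KO libraries, against 117, 175 and 198 CPM in WT libraries. Wars2, for tryptophan, had 15.9, 10.5 and 18.6 CPM in KO libraries, against 17.5, 15.6 and 19.8 CPM in WT libraries. KO replicate 2 was the lowest library for Fars2 and Wars2, and for Iars2 the lowest was WT replicate 1. Their log2 fold changes were -0.22 ± 0.28, -0.22 ± 0.30 and -0.23 ± 0.33 (SE), and without KO replicate 2 they were -0.06, -0.16 and -0.04. Ears2, Fars2 and Wars2 were lower in the KO library in each of the 3 pairs, and 13.4% of all tested genes were. Some of these differences in log2 CPM were very small, at -0.0016 for Fars2 in pair 1 and -0.029 and -0.022 for Ears2 in pairs 1 and 3. The largest were in pair 2, at -0.19 for Ears2, -0.61 for Fars2 and -0.56 for Wars2. Iars2 overlaps the end of Rab3gap2 on the other strand over 2034 nt of its transcript.

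The remaining mitochondrial members lay closer to 0. Ears2 had 20.03, 24.7 and 30.7 CPM in KO libraries, against 20.4, 28.2 and 31.2 CPM in WT libraries. Mars2 had 72.2, 43.4 and 52.0 CPM in KO libraries, against 75.4, 50.8 and 41.4 CPM in WT libraries. Rars2 had 169, 81.5 and 114 CPM in KO libraries, against 149.7, 108 and 99.0 CPM in WT libraries. In these 3 genes replicate 1 was at an end of the range in both genotypes. Aars2, for alanine, had 40.2, 53.6 and 65.1 CPM in KO libraries, against 33.0, 46.9 and 65.9 CPM in WT libraries. Vars2, for valine, had 51.2, 56.1 and 78.8 CPM in KO libraries, against 42.1, 48.6 and 84.3 CPM in WT libraries. Cars2, for cysteine, had 45.9, 35.1 and 38.7 CPM in KO libraries, against 50.4, 37.0 and 29.6 CPM in WT libraries. The first 2 of these were lowest in replicate 1 of both genotypes, and Cars2 was highest in it. Yars2, for tyrosine, had 130.2, 58.3 and 77.4 CPM in KO libraries, against 108, 71.5 and 65.0 CPM in WT libraries. Nars2, for asparagine, had 93.2, 43.7 and 55.7 CPM in KO libraries, against 83.2, 53.9 and 50.03 CPM in WT libraries. Both had their highest value in replicate 1 of both genotypes. Hars2, for histidine, had 130.5, 70.3 and 80.6 CPM in KO libraries, against 125, 102 and 85.1 CPM in WT libraries, with its lowest value in KO replicate 2. None of these 9 genes had groups that did not overlap, and their log2 fold changes lay between -0.15 and 0.14 together with those of Lars2 and Sars2.

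The balance of the compartments was taken in each library as the mean log2 CPM of the 20 cytosolic members minus that of the 16 mitochondrial ones. It was 1.20, 1.71 and 1.81 in KO libraries, against 1.08, 1.36 and 1.65 in WT libraries. The means were 1.57 ± 0.32 in KO libraries and 1.36 ± 0.29 in WT libraries (SD, n = 3 each). The difference of 0.21 was smaller than the SD of either genotype, and the groups overlapped. Within the pairs the KO library was the higher one each time, by 0.13, 0.34 and 0.16. Leaving out single libraries gave a difference of 0.39 without KO replicate 1, 0.14 without KO replicate 2, 0.0917 without KO replicate 3, 0.0648 without WT replicate 1 and 0.35 without WT replicate 3. The cytosolic mean was 7.55, 7.60 and 8.01 in KO libraries, against 7.28, 7.44 and 7.81 in WT libraries. The mitochondrial mean was 6.35, 5.89 and 6.21 in KO libraries, against 6.20, 6.08 and 6.16 in WT libraries. The cytosolic mean was higher in KO in every pair, whereas the mitochondrial mean of KO replicate 2 was the lowest of the 6. No p is given for these scores, since the genes were chosen by name with earlier results known.

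**Figure D4:**
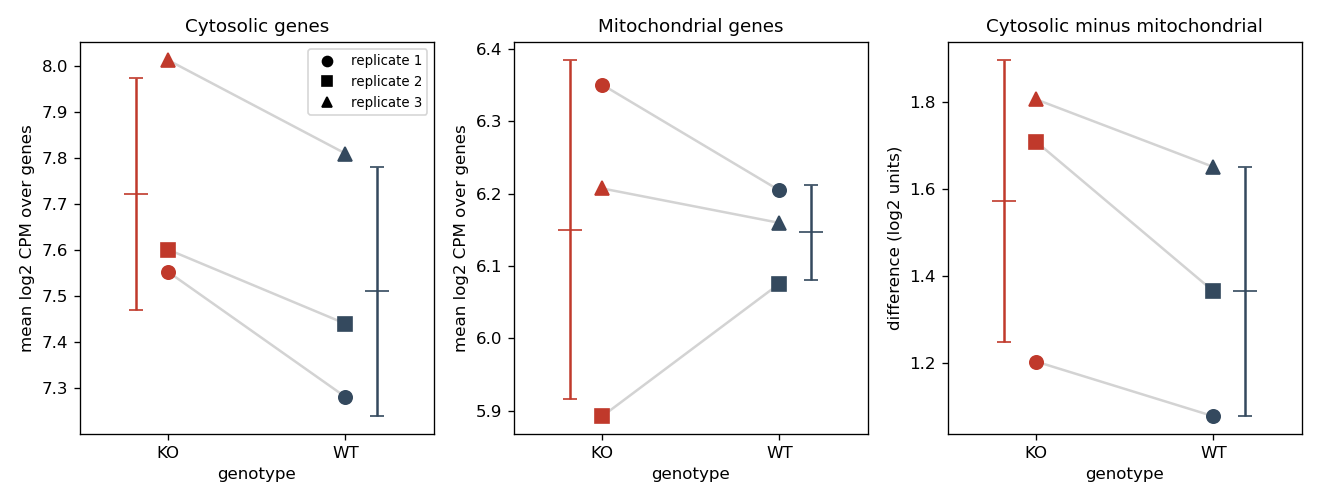
Mean log2 CPM of the cytosolic members, mean log2 CPM of the mitochondrial members, and their difference, in each KO and WT library, with lines joining libraries of the same replicate number and bars for mean ± SD (n = 3 each). The difference is higher in the KO library of each pair, and the replicates of a genotype differ by more than the genotypes do.

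For single amino acids the same contrast was read as the log2 ratio of the cytosolic gene to its mitochondrial counterpart. The ratio was higher on average in KO libraries in 15 of 17 pairs of genes, by a median of 0.27, and higher in the KO library of each replicate number in 9 of 17. In 0 of 17 did the KO and WT libraries separate. The count was 14 of 17 without KO replicate 2, 12 of 17 without KO replicate 3 and 10 of 17 without WT replicate 1. The median difference lay between 0.10 (without WT replicate 1) and 0.51 (without WT replicate 3) when single libraries were left out, a setting chosen after seeing the data. The widest differences were those of Farsb to Fars2, at 0.58, of Wars to Wars2, at 0.50, and of Cars to Cars2, at 0.46. In the first 2 the mitochondrial gene was lower in KO libraries and lowest in KO replicate 2. In the pair of Cars and Cars2 the difference lay mostly in Cars, whose log2 fold change was 0.51 while that of Cars2 was 0.03.

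Libraries of the same replicate number deviated together from their group means, with correlations across genes of 0.53, 0.16 and 0.63. In log2 CPM, WT replicate 2 correlated more with KO replicates 1 and 3 (0.958 and 0.954) than with KO replicate 2 (0.918). Pair 2 is thus weakly grounded, which limits every count over 3 pairs. Pairs 1 and 3 were also fitted with a replicate block, leaving out both replicate 2 libraries. In that edgeR fit 117 of 13572 genes were called (0.862%), and 0 of the 36 members were. With so few libraries, the SEs and p-values of this fit rest mostly on variance borrowed across genes (prior degrees of freedom 14.5). The smallest adjusted p among the members was 0.12, for Gars and Yars. Before adjustment 12 cytosolic and 2 mitochondrial members, Tars2 and Yars2, were higher at p under 0.05 and none was lower, where 5.45% of all genes were higher and 7.74% lower. The log2 fold changes were 0.41 ± 0.11 for Yars, 0.37 ± 0.10 for Gars, 0.37 ± 0.11 for Farsb, 0.32 ± 0.10 for Nars and 0.34 ± 0.12 for Cars (SE). Aars had 0.22 ± 0.11 in this fit, less than in the fit of all 6 libraries. The cytosolic median was 0.28, with 19 of 20 positive and Vars the exception, and the mitochondrial median was 0.10, with 10 of 16 positive. The median of all genes was -0.01, and 48.5% were positive and 51.5% negative. Leaving out only KO replicate 2 gave medians of 0.33 for cytosolic members, with 19 of 20 positive, and of 0.12 for mitochondrial members, with 11 of 16 positive, where 49.5% of all genes were positive and 50.5% negative. With the block over all 3 pairs 0 members were called, and 4 members, Cars, Farsb, Nars and Yars, were higher at an unadjusted p under 0.05, against 2.18% of all genes.

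For most members the spread of single WT libraries was wider than the difference between genotype means. For 32 of the 36 members the range over the WT libraries exceeded the difference between the genotype means. A range of single libraries can exceed a difference of means for most genes, and the share over all tested genes was not counted. The count is therefore not read as a trait of the members. Eprs was 3.00-fold higher in replicate 3 than in replicate 1 among KO libraries and 2.86-fold among WT libraries. For Iars the ratio was 2.63 in KO libraries and 2.33 in WT libraries, and for Vars 2.07 in KO libraries and 2.49 in WT libraries. Dars and Lars2 went the other way, at 0.548 and 0.501 in KO libraries and at 0.466 and 0.596 in WT libraries. Replicate 3 exceeded replicate 1 in 16 of 20 cytosolic members in KO libraries and 17 of 20 in WT libraries. It did so in 6 of 16 mitochondrial members in KO libraries and 7 of 16 in WT libraries. The median log2 ratio of cytosolic members was 0.40 in KO libraries and 0.45 in WT libraries. For mitochondrial members it was -0.26 in KO libraries and -0.07 in WT libraries, and over all tested genes -0.02 in each genotype. Across the 36 members the log2 ratio in KO libraries and that in WT libraries had a Pearson r of 0.946, and across all tested genes r was 0.694. These are correlations across genes, which share the libraries and are not independent replicates. Against log2 transcript length, the ratio of the cytosolic members had an r of 0.71 in KO libraries and 0.58 in WT libraries. That of the mitochondrial members had an r of 0.12 in KO libraries and -0.02 in WT libraries. Over all tested genes r was 0.49 in KO libraries and 0.54 in WT libraries, so the relation of the cytosolic members to length was also seen in the table as a whole. The genotype fold change in pairs 1 and 3 was related to length as well. Its r with log2 length was -0.44 for cytosolic members, -0.18 for mitochondrial members and -0.17 over 13251 genes. In the fit of all 6 libraries the same r was 0.15, -0.23 and 0.05. The part of length in the fold changes was not tested.

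**Figure D5:**
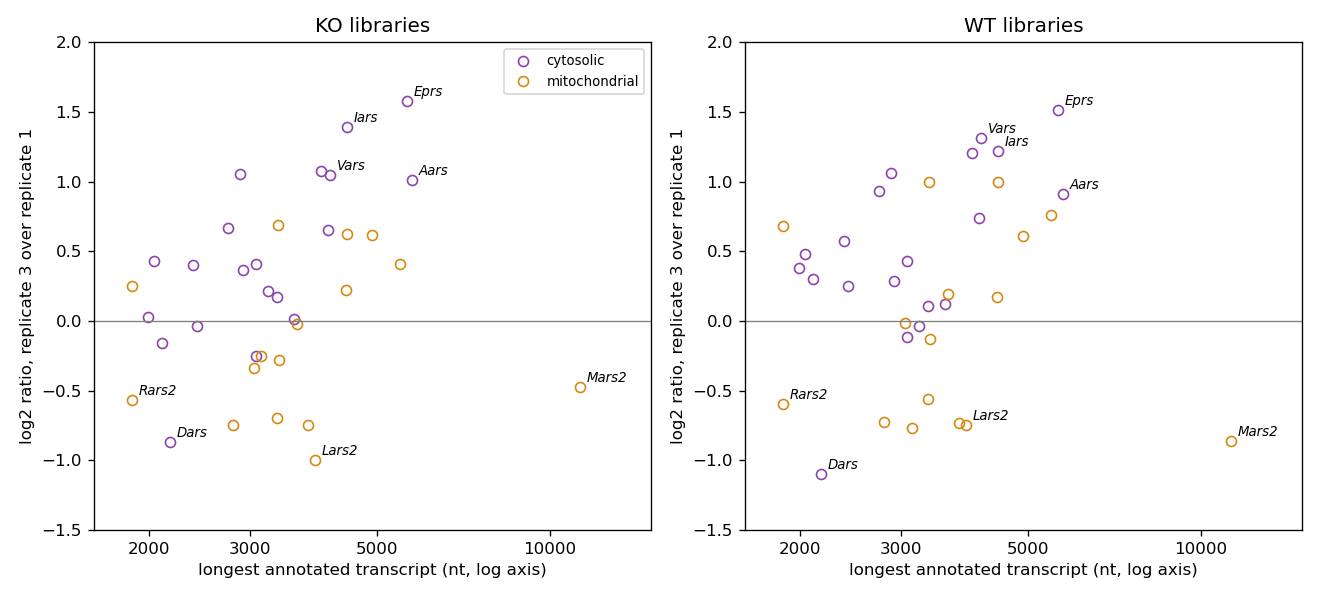
Log2 ratio of replicate 3 over replicate 1 of each member against the length of its longest transcript in nucleotides on a log axis, for KO libraries on the left and WT libraries on the right. Long cytosolic genes such as Eprs, Iars and Vars are higher in replicate 3 in both genotypes, and Dars and Lars2 are lower.

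Genes that work beside the synthetases did not pass the test either. The list of 18 charging partners, which takes in the complex scaffolds, the mitochondrial amidotransferase and enzymes of tRNA editing, modification and selenocysteine, had 6 members higher and 12 lower, with a median log2 fold change of -0.07. Without KO replicate 2 it had 14 higher and 4 lower, with a median of 0.16. Of all genes 49.3% were higher over all libraries and 49.5% without KO replicate 2. Qrsl1, the catalytic subunit of the amidotransferase, had 35.97, 21.03 and 22.6 CPM in KO libraries, against 22.4, 23.0 and 17.6 CPM in WT libraries. Its log2 fold change was 0.34 ± 0.32 over all libraries and 0.53 ± 0.20 in pairs 1 and 3 (SE), while its partner subunit Gatb had -0.27 ± 0.39 and -0.15 ± 0.14. The remaining subunit, Gatc, had 0.12 ± 0.28 and 0.22 ± 0.13, so Qrsl1 and Gatc had positive values and Gatb negative ones. Pstk, which prepares selenocysteinyl-tRNA, had -0.31 ± 0.53, and the editing enzyme Aarsd1 had -0.40 ± 0.70, at levels under 3 CPM.

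The 9 elongation factors of charged tRNA delivery and translocation had 5 members higher and 4 lower, with a median of 0.04. In pairs 1 and 3, 8 of 9 were higher, with a median of 0.22. Of all genes 49.3% were higher over all libraries and 48.5% in pairs 1 and 3. Eef1a1, which carries charged tRNA to the cytosolic ribosome, had 3956, 1785 and 2135 CPM in KO libraries, against 4047, 4714 and 2272 CPM in WT libraries. KO replicate 2 was the lowest library and WT replicate 2 the highest. Eef1b2, a subunit of its exchange factor, had 465, 218 and 205 CPM in KO libraries, against 494, 426 and 173 CPM in WT libraries, with KO replicate 2 far below WT replicate 2. The mitochondrial factors Gfm1 and Tsfm had log2 fold changes of 0.29 ± 0.27 and 0.21 ± 0.31 (SE), and of 0.40 ± 0.12 and 0.37 ± 0.12 in pairs 1 and 3.

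In a list of 24 ATF4 response genes other than synthetases, 22 were tested, 15 higher and 7 lower, with a median of 0.20. Among all tested genes 49.3% were higher. Before adjustment 3 of the 22 were higher at p under 0.05 (edgeR) and 0 lower, against 1.53% higher and 0.208% lower of all genes. None of the 22 was called over the 6 libraries (adjusted p = 1.00 each, edgeR). In pairs 1 and 3, whose p-values rest mostly on variance borrowed across genes, 1 was called higher and 1 lower. Of all genes 0.862% were called in that fit. Asns, the asparagine synthetase, rose in pairs 1 and 3 with a log2 fold change of 0.80 ± 0.11 (SE, adjusted p = 0.0018, edgeR). It had 306, 249 and 220.0 CPM in KO libraries, against 163, 96.3 and 137 CPM in WT libraries, and its groups did not overlap. Ppp1r15a, the phosphatase subunit through which phosphorylated eIF2alpha is reset, fell in pairs 1 and 3 by 0.79 on the log2 scale (SE 0.11, adjusted p = 0.0018, edgeR) and is named after its values were seen. It had 145, 350.4 and 111 CPM in KO libraries, against 241, 166 and 201 CPM in WT libraries, with KO replicate 2 the highest of all. Mthfd2, of mitochondrial folate metabolism, had 30.4, 41.0 and 31.8 CPM in KO libraries, against 22.4, 16.03 and 17.3 CPM in WT libraries, and the groups did not overlap. Trib3, a pseudokinase, had 1.28, 23.4 and 2.27 CPM in KO libraries, against 0.60, 0.62 and 0.36 CPM in WT libraries, with KO replicate 2 far above the other 5 libraries. Cebpb, a partner of ATF4, had 5.56, 20.2 and 4.47 CPM in KO libraries, against 6.17, 4.13 and 3.70 CPM in WT libraries, also highest in that library. Atf4 itself had a log2 fold change of -0.05 ± 0.36 and Ddit3, another ATF4 target, of -0.17 ± 0.32 (SE). The list thus had members in both directions.

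Annotated neighbours limit some of the values. Mars and Ddit3 overlap end to end on opposite strands on chromosome 10, at 127296221 to 127296288. The longest Aars transcript contains the single exon of Exosc6 over 1326 nt, and Exosc6 had 0 counts in all 6 libraries. Iars has a processed pseudogene, Gm4849, at 96.0% identity over 1656 nt. Wars overlaps Wdr25, Farsb overlaps Sgpp2, Cars2 overlaps Naxd, Fars2 overlaps Lyrm4 and Ears2 overlaps Ubfd1, each on the other strand. How the authors' counting treated reads in these stretches is not given in the sources used here.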

How the data were processed

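Read counts per gene were deposited by the authors in a single table of 52459 genes and 6 libraries, 3 KO and 3 WT, and the values were whole numbers with no normalization. Per the labels' protocols, the kits were SMART-Seq v4 for amplification and Nextera XT for the libraries, neither of which marks strand. The submitters' processing notes list STAR 2.5.3a, edgeR and FastQC 0.11.5, with the build GRCm38.p3 beside a human one. No source used here gives the counter, its strand setting or its treatment of multimapped reads.

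The counts were tested with the quasi-likelihood test of edgeR 4.0.16 in R 4.3.3, with TMM scaling, filterByExpr at a minimum count of 10, no covariate, and Benjamini-Hochberg adjustment over all 13453 genes tested at a threshold of 0.05. On simulated data the fold changes were recovered, but this test and limma voom called no gene made to differ. DESeq2 and the replicate block on 6 libraries called some along with genes left unchanged. The fit of pairs 1 and 3 called some with no false call. The simulation drew each gene independently, with replicate shifts not tied to transcript length as in the real libraries. It therefore cannot vouch for the calls made in pairs 1 and 3. Members were read from the fit of all 6 libraries, with the other fits as alternatives, and not adjusted among themselves. CPM is the count scaled to 1000000 per library after TMM, and log2 CPM used a prior count of 2. In lists of 3 values, the order is replicate 1, 2 and 3. Fold changes per pair are differences in log2 CPM between libraries of the same number. Same-numbered libraries deviated together from their group means, with correlations across genes of 0.53, 0.16 and 0.63, each over 0.1, so the numbers were taken to pair the samples, from the data and not from the labels. Transcript lengths came from GENCODE M21, and overlaps from the gene coordinates in the deposited count table. Near-identical stretches of at least 70 nt at 95% identity came from blastn 2.17.0, and promoters from RefSeq. At these depths 3 counts correspond to 0.138 to 0.220 CPM, and intervals and floors cover counting error only.

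All members could be named. Values in every library were given for the 6 cytosolic and 4 mitochondrial members of smallest p, the 3 highest and lowest per length of each compartment, and their counterparts, and further members were added after their values were seen. Of other lists up to 4 members of smallest p were named. Beyond these, the complex scaffolds, Gatc, Ppp1r15a, Atf4 and Ddit3 were named too. The members, lists and alternatives were chosen with earlier results of these data known. The alternatives were a replicate block, pairs 1 and 3 alone, each library left out, DESeq2 1.42.0, limma 3.58.1 with voom, and other scalings, filters and lengths.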

Additional observations from a re-analysis of the deposited data

How the results depend on the processing

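Over the 14 alternative settings 0 of the 36 members were called. The count of called genes was 0 in the fit of all 6 libraries, where 234 had an unadjusted p under 0.05, 117 in pairs 1 and 3 with the replicate block, 6 with DESeq2, and 0 with limma voom and with the replicate block on all 6 libraries. Leaving out 1 library unbalances the pairs. It moved the cytosolic median log2 fold change between 0.0481 (without KO replicate 3) and 0.48 (without WT replicate 3), with 0.12 without WT replicate 1. The mitochondrial median then lay between -0.15 and 0.12, and the cytosolic minus mitochondrial difference of KO and WT between 0.06 (without WT replicate 1) and 0.39 (without KO replicate 1). That difference was 0.14 in pairs 1 and 3, 0.29 with medians in place of means, and 0.22 without Lars2, a setting added after seeing the data. The replicate block changed no other call. With median transcript lengths the order of members had a Spearman rho of 0.85 with the order reported. Of 726 fold changes of 52 named genes over the settings, 663 kept direction and side of the threshold, 2 were newly called (Asns and Ppp1r15a in pairs 1 and 3) and 61 changed sign, in 26 genes. Signs changed in pairs 1 and 3 for Dars (0.0479), Vars (-0.0663), Sars2 (-0.0289) and Eef1b2 (0.0734), for Ppp1r15a with the stricter filter (0.0219), for Mars2 with no filter (-0.0128), and for Rars2 with the replicate block on all 6 libraries (-0.010) and with limma voom (-0.0102). With 1 library left out, the log2 fold changes that changed sign spanned Aars2 -0.0942 to 0.41, Atf4 -0.33 to 0.16, Cars2 -0.13 to 0.26, Dars -0.55 to 0.26, Ddit3 -0.33 to 0.0185, Ears2 -0.25 to 0.0554, Eprs -0.35 to 0.74, Farsa -0.0481 to 0.0612, Gatc -0.0667 to 0.24, Hars2 -0.47 to 0.0162, Iars -0.18 to 0.60, Lars -0.24 to 0.48, Lars2 -0.13 to 0.36, Mars2 -0.23 to 0.27, Nars2 -0.33 to 0.30, Ppp1r15a -0.66 to 0.29, Pstk -0.99 to 0.087, Qars -0.10 to 0.12, Rars2 -0.29 to 0.24, Sars2 -0.12 to 0.24, Tsfm -0.0334 to 0.40, Vars -0.17 to 0.54, Vars2 -0.13 to 0.46, Wars -0.14 to 0.58 and Yars2 -0.27 to 0.37. The cause was not tested. With 3 libraries of each genotype, an exact permutation test of a single value cannot go below 0.10.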
